A study of Mus musculus with 9 samples.

Results

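Nuclear transport genes were followed across the tibia libraries: the nucleoporins that build the nuclear pore complex, the importins and exportins that carry cargo through it, and the small GTPase Ran. Members were taken by symbol, as all genes of the table named Nup, Kpna or Kpnb, Ipo, Xpo or Xpot followed by their number, Tnpo1 to Tnpo3, and Ranbp2, Ran, Tpr, Cse1l, Ndc1, Pom121 and Seh1l. The rule gave 51 of the 22183 genes in the table. No measured value entered it, but the members were chosen with earlier results of these data known. Of these, 49 passed the filter on low counts that left 14211 genes for testing. The members comprise 26 nucleoporins, 17 importins, 7 exportins and Ran.

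Mouse tibia libraries of polyadenylated RNA were sequenced, 9 in all and 3 in each of 3 groups. Naive tibiae were left untreated. Ti tibiae were exposed to titanium particles, which stand for the wear debris behind the loosening of joint implants. Ti+I-OG tibiae had the particles plus I-OG, a hydrogel built on natural polymers and loaded with the myokine irisin that was injected into the bone, and 5 weeks of treatment preceded the analysis. The sources used here give no strain, sex or age, and no treatment time for the naive and Ti tibiae. They do not say whether each library came from its own animal, so p-values here reflect only the variation among these libraries, which may be technical. Total counts ran from 16256081 to 24766502 per library.

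The nuclear pore complex is a ring-shaped channel through the nuclear envelope. Stacked scaffold rings are tied to the membrane by transmembrane nucleoporins, and disordered phenylalanine-glycine (FG) repeats fill the channel and hold back large molecules that lack a carrier. Importins bind cargo in the cytoplasm and release it where Ran carries GTP, which is in the nucleus, while exportins bind cargo together with Ran-GTP and release it outside. Bone and its marrow hold dividing blood precursors, matrix-forming osteoblasts and bone-resorbing osteoclasts, and all of them rely on this machinery. A bulk library sums them: fewer cells of a type and less RNA per cell cannot be told apart in any value given here.

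The most abundant member per transcript length was Ran, at 171 ± 5.27 FPKM for naive, 146 ± 8.82 for Ti and 167 ± 8.77 for Ti+I-OG (mean ± SD, n = 3 in each group here and below). FPKM correct a fragment count for transcript length and for depth, and so give the scale on which genes of different length can be set side by side. Kpna2, an importin alpha that bridges the classical nuclear localisation signal and importin beta, came next at 155 ± 18.3 FPKM in naive, and it and Ran overlap within 1 SD. Xpo7, an exportin known for its high expression in maturing red cells, stood at 82.7 ± 22.4 FPKM in naive. Kpnb1, importin beta itself, followed at 59.4 ± 9.05, and Xpo1, the CRM1 exportin that reads leucine-rich export signals, at 51.4 ± 0.876. These neighbouring carriers overlap within their SD in naive. Tpr, the filament protein of the nuclear basket, had the highest mean of the nucleoporins in naive, at 45.5 ± 10.3 FPKM. Nup210, a membrane-spanning pore protein, had 31.2 ± 11.5, and the 2 overlap within 1 SD. The FPKM of Tpr rest on a length of 3753 bases, against 7480 in its longest annotated transcript, so its rank is uncertain.

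At the low end stood Ipo4, an importin of histones and ribosomal proteins, at 3.71 ± 0.534 FPKM in naive, and Xpo4, an exportin, at 5.85 ± 1.03. Ipo13, which carries cargo both ways, had 6.58 ± 0.981. Members of the scaffold differed among themselves as well: in the Y complex, the outer scaffold unit, levels in naive ran from 7.66 ± 1.23 FPKM for Nup133 to 25.2 ± 0.149 for Nup85. Among the importin alpha proteins, Kpna4 had 28.8 ± 0.435 FPKM in naive, Kpna3 20.1 ± 0.496, Kpna1 19.5 ± 0.263 and Kpna6 11.4 ± 2.03. Kpna2 therefore stood apart from the other members of its class.

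Kpna7, Nup62cl and Nup210l were near or at 0. Kpna7, the importin alpha of egg and early embryo, is listed at 0 in all 9 libraries, and a count of 0 allows up to 3 counts, or 0.121 to 0.185 CPM depending on the library. Nup62cl, a relative of the channel protein Nup62, had counts of 0, 1 and 0 across naive, 0, 2 and 1 across Ti and 3, 0 and 1 across Ti+I-OG, 8 in all, and was not tested. Nup210l, a paralogue of Nup210 known from the testis, was detected at 0.192 ± 0.0512 FPKM in naive.

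**Figure D1:**
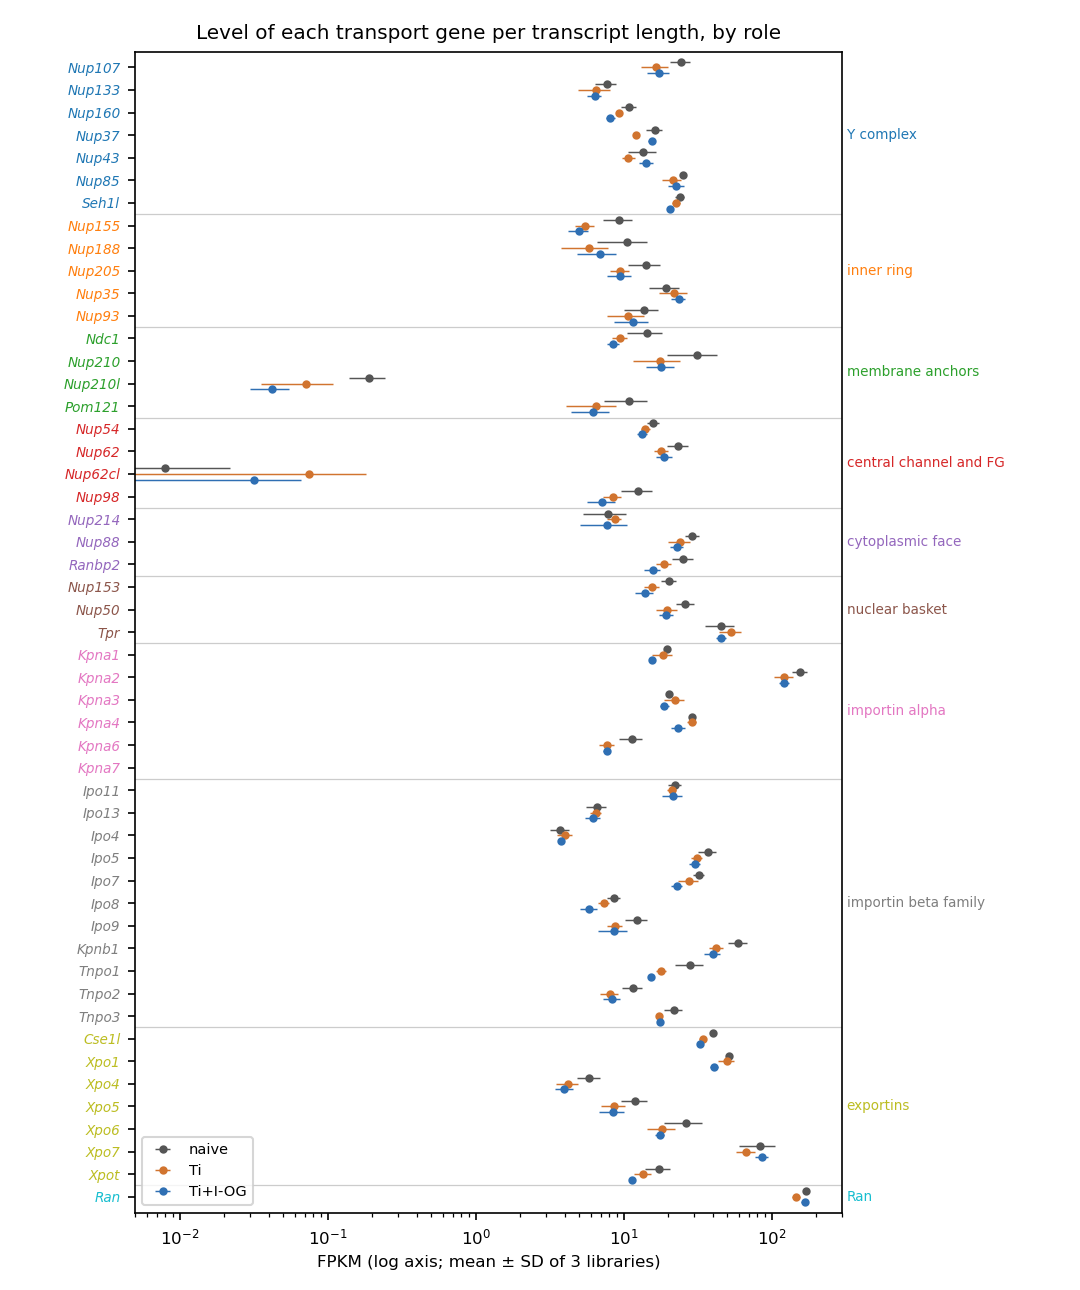
Level of each member per transcript length, in FPKM on a log axis, grouped by role; points are group means and bars the SD of 3 libraries. Ran and Kpna2 lie highest and Nup210l and Nup62cl lowest, and Kpna7, listed at 0, has no point.

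The start regions of Tnpo1, the importin of the beta family whose difference passed the test below, and of Ran are shown as examples of the regions before the starts of these genes. RefSeq (GRCm38.p6) held start sites for 40 of the 51 members, 47 in all, and the 250 bases before each start are given 5′ to 3′ on the gene's strand. Capitals mark letter strings searched on both strands, none of which contains another. The GC box, a common element of promoters that lack a TATA box, was searched as GGGCGG. For the CCAAT box the string was CCAAT. That of the core recognised by ETS factors was CCGGAAG. The NRF1 motif, whose factor is known for housekeeping and mitochondrial genes, was searched as GCGCA followed by its reverse complement.
Tnpo1, distal start, chr13:98926385-98926634, minus strand: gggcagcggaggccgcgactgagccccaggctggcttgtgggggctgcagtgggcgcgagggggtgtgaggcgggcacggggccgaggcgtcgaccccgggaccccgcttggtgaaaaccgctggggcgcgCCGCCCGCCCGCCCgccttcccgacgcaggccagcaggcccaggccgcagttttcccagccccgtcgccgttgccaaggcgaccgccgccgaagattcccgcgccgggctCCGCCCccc
Tnpo1, second start, chr13:98891043-98891292, minus strand: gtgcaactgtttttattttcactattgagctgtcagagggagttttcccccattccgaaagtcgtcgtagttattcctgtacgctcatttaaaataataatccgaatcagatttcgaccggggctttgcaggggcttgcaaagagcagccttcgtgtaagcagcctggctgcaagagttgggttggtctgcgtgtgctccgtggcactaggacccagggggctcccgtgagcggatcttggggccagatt
Ran, chr5:129019906-129020155, plus strand: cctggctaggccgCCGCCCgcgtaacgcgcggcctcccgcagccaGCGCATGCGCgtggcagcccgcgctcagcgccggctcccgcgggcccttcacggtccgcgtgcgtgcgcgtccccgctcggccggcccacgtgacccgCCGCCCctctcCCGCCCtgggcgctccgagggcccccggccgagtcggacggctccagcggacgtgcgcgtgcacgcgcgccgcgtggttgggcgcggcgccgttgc
The distal Tnpo1 region had 78.0% G or C and 33 CpG dinucleotides, and the second 51.6% and 12, with none of the motifs. The Ran region had 81.6% and 49 CpG, the highest CpG count of the member regions, with GC boxes and the NRF1 letters. Over the 47 member regions the median was 64.0% G or C and 22 CpG, against 52.4% and 6 over all 32851 RefSeq regions, of 27025 genes. That background was not limited to genes detected in these libraries, while nearly all members were detected. GC box letters were in 59.6% of member regions and 32.7% of all, the CCAAT box in 46.8% and 33.8%, the ETS core in 14.9% and 6.91%, and the TATA box, TATAAA, which is not capitalised, in 10.6% and 12.4%. The NRF1 letters were in 10.6% of member regions, those of Nup107, Nup50, Nup62, Ran and Xpo5, and in 0.782% of all. These are letter matches in a fixed window, not binding sites, and the sources used here do not name the build behind the deposited table.

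Most members lay lower in the titanium libraries than in naive, by a modest amount. In Ti against naive, 42 of the 49 tested members had a negative log2 fold change and the median was -0.28, against 0.01 over all 14211 genes, of which 49.3% were negative and 50.7% positive. The 7 with a positive value were Nup35, Kpna1, Kpna3, Kpna4, Ipo4, Ipo13 and Xpo1. No member passed edgeR's quasi-likelihood test with Benjamini-Hochberg adjustment over all genes (adjusted p under 0.05), where 4.05% of genes were called higher and 2.39% lower; the smallest adjusted p was 0.0597, for Tnpo3. At an unadjusted p under 0.05, 21 members were lower and 0 higher, where the background is 12.4% and 14.4%. All 3 Ti libraries lay below all 3 naive libraries for 17 members (background 12.9%) and above them for 1, Ipo4 (background 14.3%). The 42, the 21 and the 17 each include Nup210l, which only the naive libraries carried past the filter on low counts. DESeq2 called 5 members lower, Kpnb1, Tnpo1, Tnpo3, Xpo6 and Xpot, and 0 higher, where it called 5.68% and 7.4% of genes. Limma-voom called 0 in either direction (background 2.32% lower and 3.91% higher). Limma on log2(FPKM + 0.1) called 1 lower, Tnpo1, and 0 higher (background 1.56% and 2.27%).

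Ti+I-OG against naive gave a like shift, with 38 members negative, 11 positive and a median of -0.19, against 0.03 over all genes, of which 47.3% were negative and 52.7% positive. This comparison uses the same 3 naive libraries as the first, so the 2 sets of values are not independent. Members called were 2, Tnpo1 and Nup210l, both lower, and 0 higher, where 4.43% of genes were called lower and 3.84% higher. Nup210l passed the filter on low counts through the naive libraries alone, and without that filter Tnpo1 was the 1 member called. Unadjusted p was under 0.05 for 18 members on the lower side (background 14.2%) and for 1 on the higher side, Nup35 (background 15.6%). The groups did not overlap for 20 members that were lower (background 16.9%) and for 1 that was higher, Ran (background 18.7%). The 38, the 18 and the 20 each include Nup210l. DESeq2 called 9 members lower and 0 higher (background 9.11% and 8.06%), limma-voom 1 lower and 0 higher (background 3.34% and 3.23%), and limma on log2(FPKM + 0.1) 12 lower and 0 higher (background 10.8% and 2.23%). In this comparison same-numbered libraries deviated together, and a fit with the replicate number as a block called 18 members, Nup35 higher and 17 lower, where it called 12.1% of all genes higher and 12.2% lower. Nup210l was among the members called by DESeq2, by limma on log2(FPKM + 0.1) and by this block fit.

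**Figure D2:**
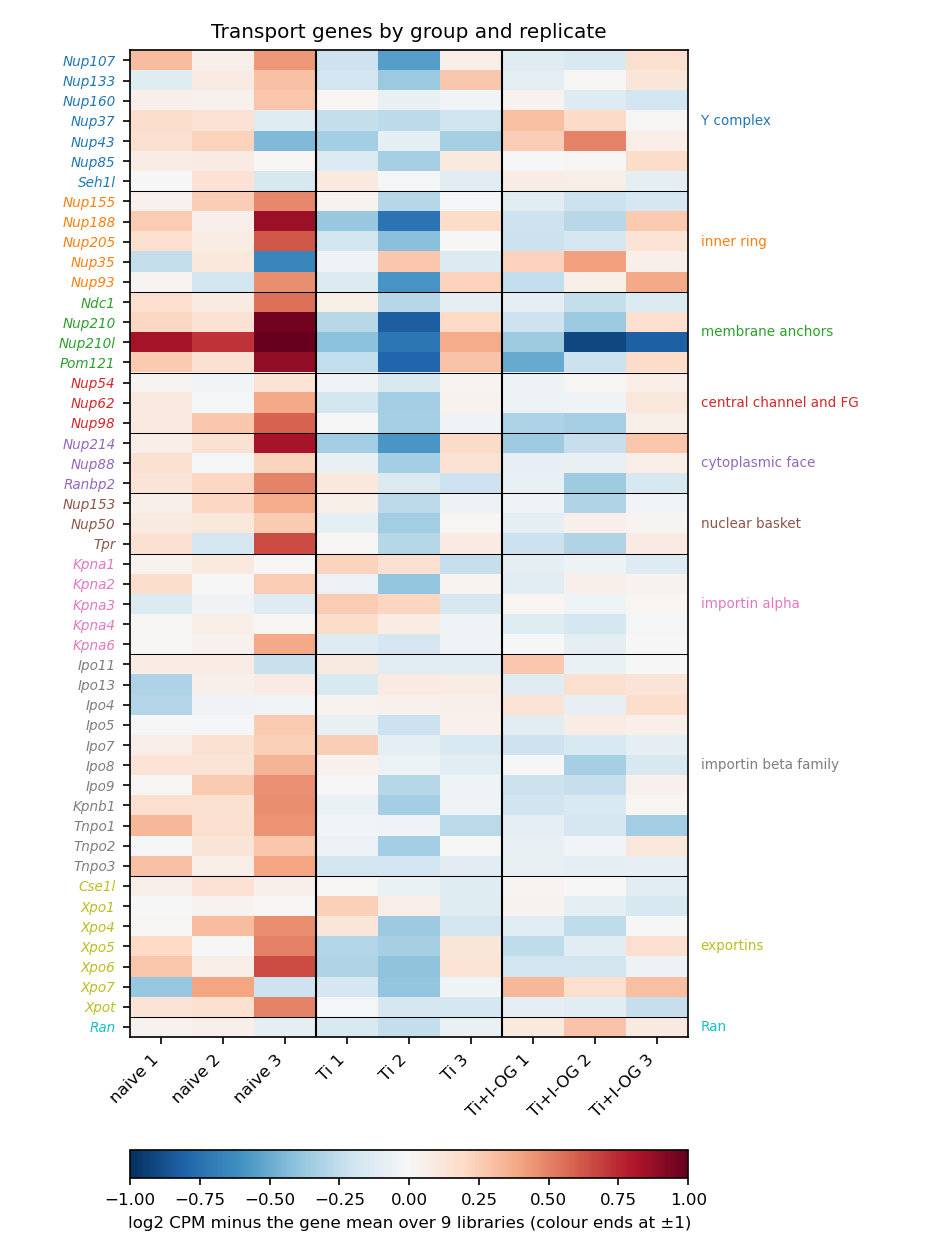
Log2 CPM of each tested member minus its mean over the 9 libraries, by library (columns) and role (rows); red is above and blue below the mean, and colours end at ±1. Naive replicate 3 is the reddest column and Ti replicate 2 the bluest.

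The family level differed between libraries of a group as well. The mean log2 level of the 49 members, taken as the difference from a gene's own mean over all libraries, was 0.08, 0.11 and 0.30 in naive replicates 1 to 3, -0.07, -0.25 and -0.01 in Ti, and -0.08, -0.10 and 0.01 in Ti+I-OG. Naive lay above both other groups without overlap, and Ti and Ti+I-OG overlapped. Naive replicate 3 was the highest library for 33 of the 49 members and Ti replicate 2 the lowest for 28. Without naive replicate 3 the median log2 fold change was -0.23 in Ti against naive, with 43 members negative, and -0.16 in Ti+I-OG against naive, with 40 negative. Without Ti replicate 2 it was -0.22 in Ti against naive, with 42 negative. The members took 0.529% ± 0.0547 of the total count for naive, 0.420% ± 0.0328 for Ti and 0.409% ± 0.0308 for Ti+I-OG (mean ± SD, n = 3).

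Exons of 18 of the 51 members overlap those of another annotated gene, 14 of them on the opposite strand, and the library kit does not mark strand. For 12 the other gene is in the table (Ipo4, Kpna7, Nup188, Nup214, Nup35, Nup62, Nup88, Pom121, Tnpo3, Tpr, Xpo4 and Xpo7), and their values are uncertain to that extent.

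Among the importins, Tnpo1, transportin, which imports many RNA-binding proteins through a proline-tyrosine signal, had the smallest p of the members in a test over the 3 groups together, without passing it (adjusted p = 0.0588 by edgeR); that test called 0 members and 820 of the 14211 genes. Tnpo1 had 201, 178 and 218 CPM across naive, 156, 155 and 132 across Ti and 149, 142 and 125 across Ti+I-OG. Every Ti and Ti+I-OG library lay below every naive one, and Ti and Ti+I-OG overlapped. It fell by 0.52 on the log2 scale in Ti+I-OG against naive (SE 0.134, 95% interval -0.81 to -0.23, adjusted p = 0.0400 by edgeR), and in Ti against naive the value was -0.43 (interval -0.72 to -0.14, adjusted p = 0.0738 by edgeR), which did not pass. The call in Ti+I-OG against naive was lost in 9 of 18 alternatives. It was lost when any 1 of the naive or Ti+I-OG libraries other than naive replicate 2 was left out (adjusted p 0.0786 to 0.133 by edgeR). A correction for transcript length also ended it, with a value of -0.15 (adjusted p = 0.498 by edgeR), as did that correction with a replicate block. Upper quartile factors and the fit of these 2 groups alone ended it as well. Of the 50-base words of its longest transcript, 14.1% also occur in the copy Gm6493, so part of its count could be shared.

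Tnpo3, which imports the serine- and arginine-rich splicing factors, had 85.3, 72.5 and 91.7 CPM across naive, 61.3, 61.1 and 64.9 across Ti and 66.2, 65.0 and 66.0 across Ti+I-OG. Here too naive stood clear of both other groups, and the 3 Ti+I-OG libraries lay just above those of Ti. The log2 fold change was -0.41 in Ti against naive (SE 0.119, interval -0.67 to -0.15, adjusted p = 0.0597 by edgeR) and -0.34 in Ti+I-OG against naive (adjusted p = 0.0872); neither passed. Kpnb1, the importin beta that pairs with the alpha proteins, had 304, 304 and 376 CPM across naive, 260.0, 216 and 264 across Ti and 237, 246 and 276 across Ti+I-OG. Naive lay above both groups, with log2 fold changes of -0.41 (adjusted p = 0.104 by edgeR) and -0.37 (adjusted p = 0.112).

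The 11 importins of the beta family had a median of -0.24 in Ti against naive, with 9 negative, and of -0.30 in Ti+I-OG against naive, with 8 negative. Besides Tnpo1, Tnpo3 and Kpnb1, the lowest in Ti against naive were Ipo9, an importin of core histones, at -0.36 (adjusted p = 0.150 by edgeR), Tnpo2, a close relative of Tnpo1, at -0.26, and Ipo8, known to carry Argonaute proteins, at -0.24. Ipo5 and Ipo7, importins of ribosomal proteins and histones, had -0.17 and -0.14, Ipo11 -0.02, Ipo13 0.05 and Ipo4 0.16, and none of them passed. Ipo4 shares 59.5% of its 50-base words with the overlapping gene Gm49378 and is uncertain. The 5 tested importin alpha genes were mixed, with medians of 0.02 and -0.13. Kpna2 had 302, 267 and 319.6 CPM across naive, 257, 203 and 272 across Ti and 249, 277 and 275 across Ti+I-OG. Its groups overlapped, and its log2 fold change was -0.28 in Ti against naive (interval -0.60 to 0.04, adjusted p = 0.237 by edgeR). Since 92.4% of the 50-base words of its transcript also occur in other annotated genes, many of them copies of it, its level is uncertain. Kpna1, Kpna3 and Kpna4, the other forms that bring classical cargo to importin beta, had 0.02, 0.21 and 0.04 in Ti against naive. Kpna6 had -0.27, and its Ti libraries did not overlap with naive. None of the 5 passed.

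Among the exportins the median was -0.39 in Ti against naive, with 6 of 7 negative, and -0.31 in Ti+I-OG against naive, also with 6 negative. Xpot, which exports transfer RNA, had 82.0, 83.4 and 105 CPM across naive, 73.9, 66.3 and 66.0 across Ti and 70.2, 69.3 and 63.5 across Ti+I-OG. Naive was above both groups, with log2 fold changes of -0.39 (interval -0.68 to -0.11, adjusted p = 0.0882 by edgeR) and -0.42 (interval -0.70 to -0.13, adjusted p = 0.0659). Xpo6, the exportin of actin, had 92.0, 79.3 and 119 CPM across naive, 61.5, 57.4 and 83.4 across Ti and 66.4, 66.8 and 73.1 across Ti+I-OG. Its naive libraries cleared those of Ti+I-OG but not Ti replicate 3, and its values were -0.52 (adjusted p = 0.0933 by edgeR) and -0.49 (adjusted p = 0.0922). Xpo5, which exports microRNA precursors, and Xpo4 had -0.40 and -0.40 in Ti against naive, with overlapping groups.

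Xpo1 showed no such shift. It had 192, 196 and 193 CPM across naive, 226, 200.2 and 176 across Ti and 196, 179 and 171 across Ti+I-OG, with overlapping groups throughout. Its log2 fold change was 0.05 in Ti against naive (interval -0.23 to 0.33, adjusted p = 0.826 by edgeR), -0.14 in Ti+I-OG against Ti and -0.09 in Ti+I-OG against naive (interval -0.37 to 0.19). Cse1l, which returns importin alpha to the cytoplasm, had -0.14 in Ti against naive and -0.11 in Ti+I-OG against naive, neither passing.

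Of the nucleoporins, 24 of the 25 tested were negative in Ti against naive, with a median of -0.31, and 20 in Ti+I-OG against naive, also with a median of -0.31. The membrane anchors had the lowest medians, -0.70 and -0.62 over 4 genes. These medians and the counts of negative nucleoporins include Nup210l, which only the naive libraries carried past the filter on low counts. Nup210 had 155, 149 and 262 CPM across naive, 111, 76.0 and 154 across Ti and 116, 104 and 151 across Ti+I-OG. Naive replicate 3 was far above all other libraries, and the remaining naive libraries overlapped with Ti and Ti+I-OG. The log2 fold change was -0.73 in Ti against naive (interval -1.33 to -0.13, adjusted p = 0.120 by edgeR) and -0.61 in Ti+I-OG against naive (adjusted p = 0.160); without naive replicate 3 these were -0.44 and -0.32. Ndc1, the anchor that recruits other pore proteins to the membrane, had 51.6, 48.5 and 67.1 CPM across naive, 47.6, 37.7 and 42.9 across Ti and 42.8, 38.9 and 41.6 across Ti+I-OG. Its naive libraries lay above both groups, with -0.38 (adjusted p = 0.132 by edgeR) and -0.44 (adjusted p = 0.0806). Pom121, an anchor with FG repeats, had -0.66 and -0.62.

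Nup210l had counts of 24, 18 and 31 across naive, 7, 6 and 13 across Ti and 7, 3 and 4 across Ti+I-OG, or 0.911, 0.841 and 1.3 CPM across naive, 0.330, 0.247 and 0.637 across Ti and 0.347, 0.206 and 0.227 across Ti+I-OG. Naive lay above every other library. It fell by 1.92 on the log2 scale in Ti+I-OG against naive (SE 0.534, 95% interval -3.09 to -0.76, adjusted p = 0.0488 by edgeR), and had -1.33 in Ti against naive (adjusted p = 0.118). Only the naive libraries carried it past the filter on low counts, so a difference was built into its being tested; without the filter its adjusted p was 0.0649. Leaving out any 1 of the naive or Ti+I-OG libraries other than naive replicate 2 also took it above 0.05 (0.0927 to 0.175). In all, the call was lost in 12 of 18 alternatives, limma-voom, upper quartile factors, the length correction and the fit of these 2 groups alone among them.

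Within the inner ring, Nup155, a scaffold protein that links the ring to the membrane, had 44.9, 51.7 and 60.8 CPM across naive, 44.8, 35.7 and 42.9 across Ti and 40.3, 37.5 and 38.7 across Ti+I-OG. Naive lay just above Ti and clear of Ti+I-OG, with -0.35 (adjusted p = 0.143 by edgeR) and -0.43 (adjusted p = 0.0740). Nup205, a large ring scaffold, had 76.9, 72.1 and 106 CPM across naive, 60.6, 51.3 and 68.5 across Ti and 59.2, 60.9 and 75.4 across Ti+I-OG. Its naive libraries cleared Ti but not Ti+I-OG replicate 3, with -0.50 (adjusted p = 0.101 by edgeR) and -0.38 (adjusted p = 0.164). Nup35, in the same ring, was the only nucleoporin with a positive value in Ti against naive, 0.27, and had 0.47 in Ti+I-OG against naive (adjusted p = 0.136 by edgeR). Its exons overlap those of Dusp19 on the same strand, so its count is uncertain. Nup188 and Nup93, the other ring members, had -0.69 and -0.26 in Ti against naive.

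In the channel, Nup98, an FG nucleoporin whose precursor also yields a scaffold protein of the Y complex, had 56.5, 63.5 and 79.5 CPM across naive, 52.8, 42.0 and 51.4 across Ti and 42.5, 41.8 and 54.9 across Ti+I-OG. Naive cleared both groups, with -0.45 (adjusted p = 0.116 by edgeR) and -0.52 (interval -0.88 to -0.16, adjusted p = 0.0686). Nup62, the core FG protein of the channel, had 55.2, 51.2 and 67.0 CPM across naive, 45.3, 40.6 and 52.8 across Ti and 49.8, 50.4 and 55.6 across Ti+I-OG. Its groups overlapped, with -0.32 (adjusted p = 0.173 by edgeR) and -0.15 (adjusted p = 0.492). Nup54, its partner, had -0.10 and -0.03.

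On the cytoplasmic face, Ranbp2, the filament protein that binds Ran and acts as a SUMO ligase, had 204, 215 and 262 CPM across naive, 200.4, 169 and 161 across Ti and 176, 145 and 167 across Ti+I-OG. Naive lay above both groups, by a narrow margin over Ti, with -0.36 (adjusted p = 0.145 by edgeR) and -0.48 (interval -0.80 to -0.16, adjusted p = 0.0626). Nup214 and Nup88, which together form an export platform, had -0.60 and -0.20 in Ti against naive, did not pass, and overlap other genes on the opposite strand, so their counts are uncertain. In FPKM, Nup214 was no lower in Ti (8.67 ± 0.936) than in naive (7.83 ± 2.50). In the basket, Tpr had 191, 152 and 271 CPM across naive, 174, 141 and 182 across Ti and 149, 140.0 and 182 across Ti+I-OG. Naive replicate 3 was far above the rest, the groups overlapped, and its count-based values of -0.31 and -0.38 changed sign on the FPKM scale, to 0.23 and 0.02. Nup153 and Nup50, which hold importins at the basket, had -0.29 and -0.29 in Ti against naive.

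Of the nucleoporin classes the Y complex was nearest to 0, with a median of -0.17 in Ti against naive and 0.01 in Ti+I-OG against naive over 7 genes. Nup107, its namesake core subunit, had 72.7, 60.9 and 79.4 CPM across naive, 50.8, 40.1 and 61.4 across Ti and 53.9, 52.8 and 65.5 across Ti+I-OG. Naive replicate 2 fell inside the range of Ti, and the values were -0.48 (interval -0.86 to -0.11, adjusted p = 0.104 by edgeR) and -0.31 (adjusted p = 0.245). Nup133 and Nup160, large scaffold subunits, had -0.17 and -0.15 in Ti against naive, and Nup160 was lower in every Ti and Ti+I-OG library than in naive without passing. Seh1l, which also serves nutrient sensing at the lysosome, had -0.01 and 0.01.

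**Figure D3:**
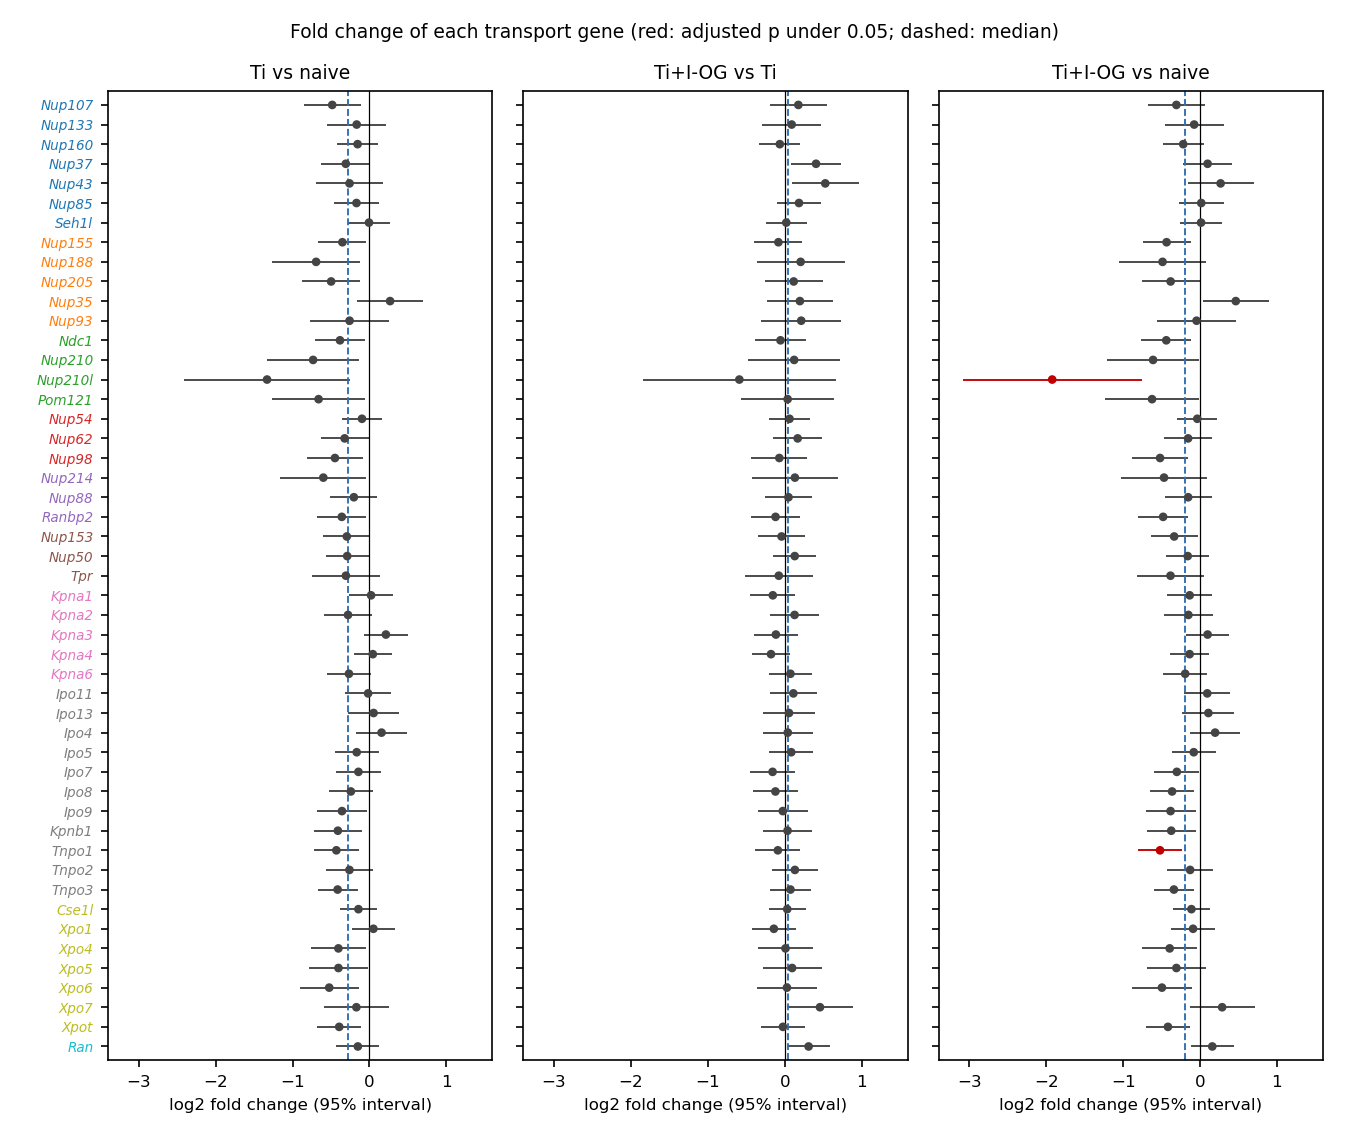
Log2 fold change of each tested member with its 95% interval in the 3 comparisons; red marks an adjusted p under 0.05 and the dashed line the median of the members. The medians are -0.28, 0.05 and -0.19 from left to right, and Tnpo1 and Nup210l are red in the right panel, Nup210l with an adjusted p of 0.0649 when the filter on low counts is left out.

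The hydrogel group and the particle group differed little in these genes. Between Ti+I-OG and Ti, edgeR's quasi-likelihood test with Benjamini-Hochberg adjustment called 0 members, and the smallest adjusted p was 0.628; it called 0.0422% of all genes higher and 0% lower. DESeq2 (0.0774% of genes higher and 0.0352% lower), limma-voom (0.0422% and 0%) and limma on log2(FPKM + 0.1) (0.0281% and 0%) also called 0 members. At an unadjusted p under 0.05, 4 members were higher (background 4.19%) and 0 lower (background 3.65%). The groups did not overlap for 5 members, all higher in Ti+I-OG: Nup37, Nup43, Tnpo3, Xpo7 and Ran (background 7.75%, and 6.71% for lower). The median over members was 0.05, with 32 positive and 17 negative, against -0.0031 over all genes, of which 49.6% were positive and 50.4% negative. On log2(FPKM + 0.1) it was -0.06, with 15 positive and 34 negative, where the median of all genes was itself at -0.11.

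The 4 members under an unadjusted p of 0.05 were Nup43, Nup37, Ran and Xpo7. Nup43, a Y complex subunit, had 18.2, 19.1 and 12 CPM across naive, 12.8, 15.3 and 12.9 across Ti and 19.3, 23.0 and 17.0 across Ti+I-OG. Nup37, another subunit of that complex, had 20.0, 19.5 and 16.2 CPM across naive, 14.9, 14.7 and 15.3 across Ti and 21.7, 20.1 and 17.8 across Ti+I-OG. Both were lower in every Ti library than in any of Ti+I-OG, with log2 fold changes of 0.53 (interval 0.10 to 0.96) and 0.41 (interval 0.09 to 0.73), each with an adjusted p of 0.628 by edgeR. These are also the shortest tested members, at 1286 and 1244 bases.

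Ran, the switch that gives transport its direction, had 392, 397 and 359 CPM across naive, 344, 325 and 365 across Ti and 409.8, 466 and 406 across Ti+I-OG. Its Ti+I-OG libraries lay above all others, and the value was 0.31 against Ti (interval 0.03 to 0.59, adjusted p = 0.630 by edgeR), -0.15 for Ti against naive and 0.16 for Ti+I-OG against naive; this last one changed sign on the FPKM scale, to -0.04. Copies such as Rasl2-9 share 15.4% of the 50-base words of its transcript.

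Xpo7 had 299.6, 511 and 338 CPM across naive, 346, 296 and 378 across Ti and 489, 434 and 479 across Ti+I-OG. All Ti+I-OG libraries lay above all Ti libraries, and naive replicate 2 was the highest of the 9. The log2 fold change was 0.46 against Ti (interval 0.03 to 0.88, adjusted p = 0.630 by edgeR), -0.17 for Ti against naive and 0.29 for Ti+I-OG against naive. Markers of the red cell lineage were also higher in Ti+I-OG than in Ti. The 12 listed genes were all in the table, and none was at 0 throughout. Without the globins they summed to 4206, 6589 and 3583 CPM in naive, 4948, 4590 and 5274 in Ti, and 6999, 7081 and 7197 in Ti+I-OG. Naive replicate 2 was the naive library with the highest sum there too, but the lowest naive library was replicate 1 for Xpo7 and replicate 3 for this sum. With the globins the sums were 30585 to 97859 CPM in naive, 71134 to 103837 in Ti and 170200 to 184867 in Ti+I-OG. In Ti against naive the markers and Xpo7 had opposite signs. The marker median was 0.23, with 9 of 12 positive, and Xpo7 had -0.17. The part of red cell RNA in the values of Xpo7 was not tested.

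The other named members had smaller values in Ti+I-OG against Ti. Kpna4 had -0.18 (interval -0.43 to 0.07) and Nup85, a Y complex scaffold subunit, 0.19 (interval -0.11 to 0.48). Kpnb1 had 0.04, Kpna2 0.13, Nup62 0.17, Nup107 0.18, Nup210 0.12, Nup98 -0.07 and Tpr -0.08. For Kpnb1 the sign flipped on the FPKM scale, and for Nup98 with the length correction. Their intervals all span 0 (that of Nup107 is -0.20 to 0.55), and none of them passed.

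**Figure D4:**
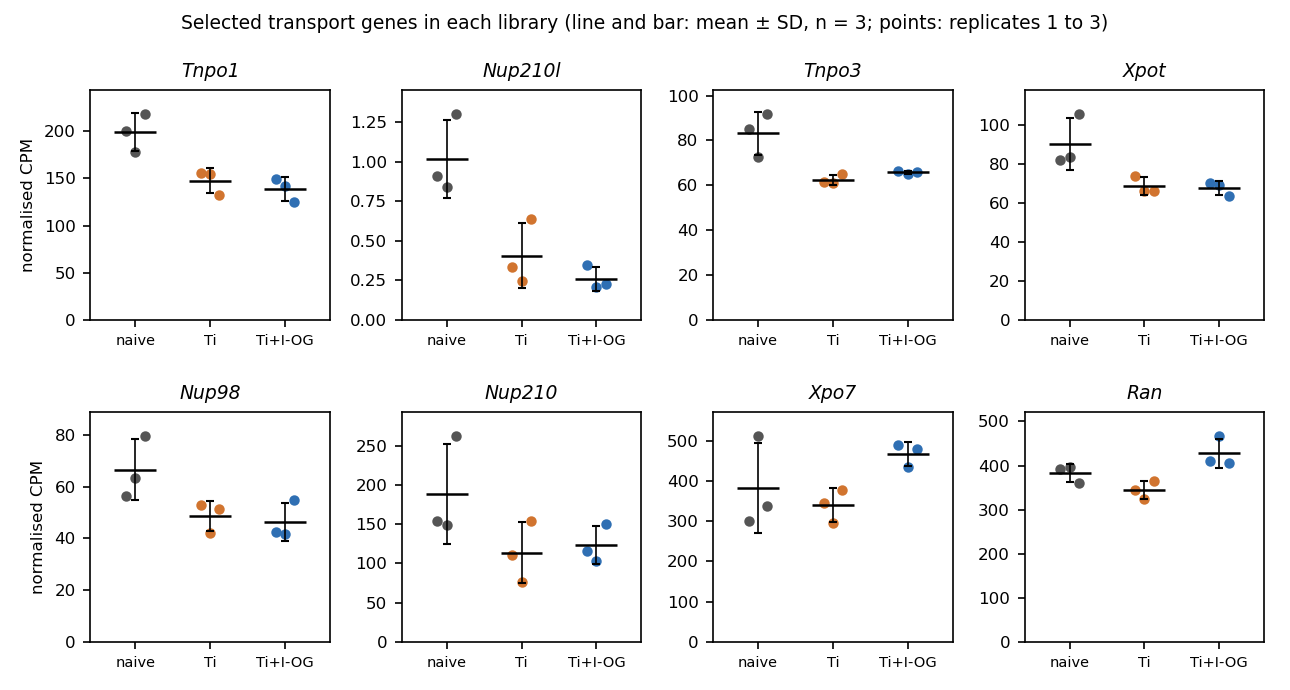
Normalised CPM of 8 members in each library; points are libraries, and the line and bar are the mean ± SD of 3. For Tnpo1, Nup210l, Tnpo3, Xpot and Nup98 the naive points lie above both other groups, while for Xpo7 and Ran the Ti+I-OG points lie above those of Ti.

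Transcript length moved with these differences. The tested members are long, with a median of 4482 bases (1244 to 9608) against 2715 over all genes, and 39 of 49 are longer than that. Across all 14211 genes, longer transcripts had lower log2 fold changes, with Spearman's rho of -0.24 in Ti against naive, -0.33 in Ti+I-OG against Ti and -0.40 in Ti+I-OG against naive; across the 49 members rho was -0.47, -0.47 and -0.68. Genes within these libraries are not independent, and all points share the same libraries. In the longest class, from 3535 bases up, the 36 members had medians of -0.33, 0.02 and -0.35 in these comparisons, against -0.12, -0.10 and -0.20 over the 4737 genes of that class. In the middle class, from 2029 bases, the 10 members had -0.19, 0.15 and -0.04, and the 4737 genes of that class had -0.02 in Ti against naive. In the short class, of 3 members, they were -0.26, 0.41 and 0.27, against 0.13, 0.11 and 0.26.

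A fit with a length correction in each library gave member medians of -0.21 in Ti against naive, 0.09 in Ti+I-OG against Ti and -0.09 in Ti+I-OG against naive, with 41, 8 and 32 of 49 negative. It called 0 members in each comparison, where it called 3.89% of genes higher and 1.98% lower in Ti against naive, 0.0281% and 0% in Ti+I-OG against Ti, and 1.13% and 1.36% in Ti+I-OG against naive. At an unadjusted p under 0.05 it left 16 members lower and 0 higher in Ti against naive (background 12.4% and 14.2%), 0 and 3 in Ti+I-OG against Ti (3.27% and 3.28%), and 3 and 2 in Ti+I-OG against naive (12.1% and 11.7%). With the replicate block as well, 1 member was called in Ti+I-OG against naive, Xpo6, lower, where 7.94% of all genes were lower and 6.85% higher. In Ti against naive that fit called 10 members, all lower, where 9.41% of all genes were lower and 9.77% higher. The part of transcript length in single members beyond this fit was not tested.

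**Figure D5:**
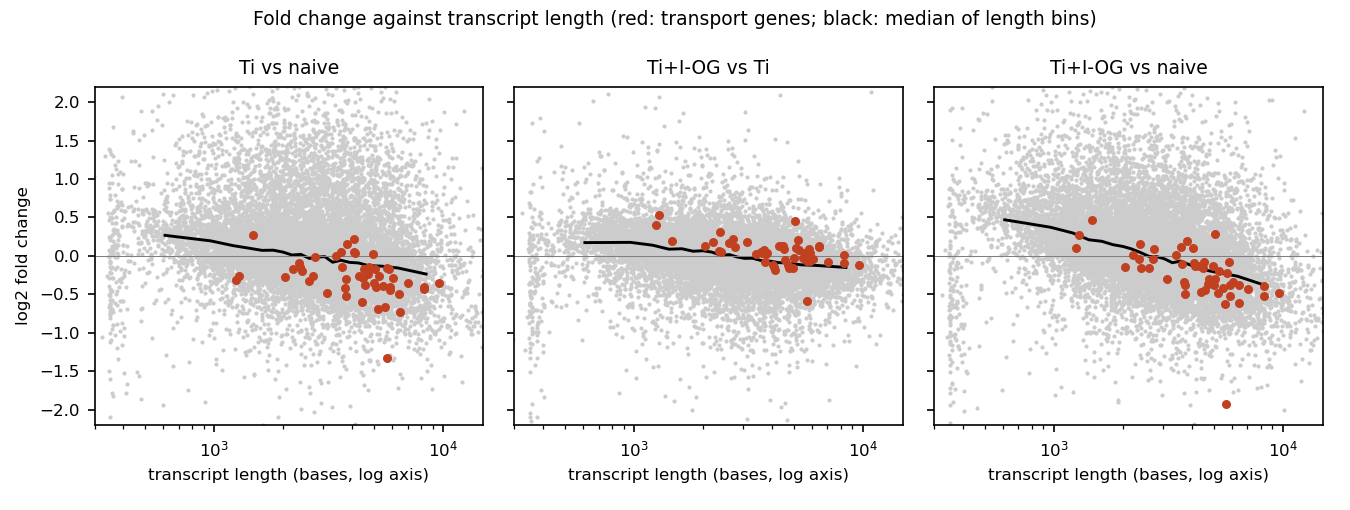
Log2 fold change against transcript length (log axis) in the 3 comparisons; grey points are all tested genes, red points the 49 members and the black line the median of length bins. The line falls from short to long transcripts in each panel, and most members sit at its long end; some grey points lie outside the axes.

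Summed levels of cell type markers differed between the groups too. The marker lists of bone, marrow and other tibia tissues were all detected, with no listed gene at 0 throughout. The 11 osteoblast and bone matrix markers summed to 2420 to 5662 CPM in naive, 11134 to 12566 in Ti and 7674 to 9195 in Ti+I-OG. Naive replicate 3, the library with the highest family level, had the lowest sum. Within Ti, replicate 2, with the lowest family level, had the lowest sum (11134 CPM). By mean relative level, Ti replicate 2 (0.728) lay close to Ti replicate 1 (0.733), and Ti replicate 3 was the lowest of Ti (0.551). The 9 osteoclast markers summed to 1326 to 2120 CPM in naive, 2747 to 3216 in Ti and 2159 to 2897 in Ti+I-OG. Tendon, adipocyte and skeletal muscle markers were on the higher side in Ti against naive as well, with medians of 2.47 over 7 genes, 1.47 over 7 and 1.15 over 10, of which 6, 0 and 1 passed. The 7 tested chondrocyte markers had a median of 1.90, with 4 called higher. The 5 osteocyte markers had 1.32, with 4 called higher and 1 lower. Megakaryocyte markers lay the other way, with all 8 negative in Ti against naive at a median of -0.64 and none passing. They summed to 1385 to 1567 CPM in naive, 545 to 1558 in Ti and 1015 to 2030 in Ti+I-OG, with the lowest sum in Ti replicate 2, the library with the lowest family level. The 12 neutrophil markers had a median of -0.28 in Ti against naive, with 8 negative, 4 positive and 3 called lower. Their lowest mean relative level of the 9 libraries was in Ti replicate 2 (-0.49). By sum, the lowest was instead Ti+I-OG replicate 3 (28061 CPM), below Ti replicate 2 (32080 CPM). Other marrow lists had positive medians in Ti against naive. All 10 B lineage markers were positive (median 0.64), with their lowest level in naive replicate 3 (-1.42). Erythroid markers were positive in 9 of 12 (median 0.23) and macrophage markers in 7 of 10 (median 0.24). The 9 T and NK markers had a median of 0.02. The 25 proliferation genes summed to 5431, 5435 and 6063 CPM in naive, 5155, 4047 and 5606 in Ti, and 5325, 5257 and 5754 in Ti+I-OG. Their highest library, naive replicate 3, and lowest, Ti replicate 2, are those of the transport genes. The part of cell makeup and of proliferation in the lower transport values was not tested.

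Genes that work beside the pore were read from the same fit, 51 of them. They cover the Ran cycle, other pore proteins, other genes like those of the importin beta family, messenger RNA export and transport adaptors. The SUMO pathway and the nuclear lamina and envelope are covered too. All 51 were tested. In Ti against naive 1 rose and 4 fell, where 4.05% of all genes rose and 2.39% fell; in Ti+I-OG against naive these same 5 genes passed in the same directions (background 3.84% higher and 4.43% lower), and the 2 comparisons share their naive libraries. Between Ti+I-OG and Ti none passed in edgeR, DESeq2, limma-voom or limma on log2(FPKM + 0.1), and 3, all higher, had an unadjusted p under 0.05 (background 4.19% higher). Medians over the 51 were -0.14, 0.13 and 0.05 in Ti against naive, Ti+I-OG against Ti and Ti+I-OG against naive.

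The gene that rose was Lmna, which encodes the A-type lamins that stiffen the nucleus. It had 69.4, 73.6 and 63.1 CPM across naive, 95.1, 97.7 and 126 across Ti and 104, 127 and 155 across Ti+I-OG. Every naive library lay below both other groups, with log2 fold changes of 0.63 (SE 0.166, adjusted p = 0.0455 by edgeR) and 0.90 (SE 0.166, adjusted p = 0.0175). The call in Ti against naive was lost in 9 of 18 alternatives, among them the FPKM scale (0.47, adjusted p = 0.142), the fit of these 2 groups alone (adjusted p = 0.0595) and leaving out any 1 library of these groups other than naive replicate 2 (adjusted p 0.0702 to 0.168). That in Ti+I-OG against naive was lost in 2, without naive replicate 3 (adjusted p = 0.0626) and without Ti+I-OG replicate 2 (adjusted p = 0.0854).

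Among the genes that fell were the nesprins, which tie the nuclear envelope to the cytoskeleton. Syne1 had 308, 279 and 548 CPM across naive, 161, 136 and 194 across Ti and 149, 122 and 154 across Ti+I-OG. Naive lay above both groups, and naive replicate 3 was the highest; the values were -1.21 (adjusted p = 0.0201 by edgeR) and -1.42 (adjusted p = 0.0129), and without naive replicate 3 they were -0.86 and -1.08. Syne2 had 33.5, 33.2 and 75.5 CPM across naive, 17.0, 20.6 and 25.3 across Ti and 19.0, 16.1 and 23.3 across Ti+I-OG. Its values were -1.18 (adjusted p = 0.0401 by edgeR) and -1.28 (adjusted p = 0.0320); without naive replicate 3 they were -0.69 and -0.80, and neither passed (adjusted p = 0.107 and 0.0746). Syne3 followed with -1.21 (adjusted p = 0.0211 by edgeR) and -0.90 (adjusted p = 0.0460), and it did not pass either without that library (adjusted p = 0.0516 and 0.149). Over the 18 alternatives in each comparison with naive, the calls of Syne1 were lost in 2 (Ti) and 1 (Ti+I-OG), those of Syne2 in 8 and 5 and those of Syne3 in 3 and 9, with no change of sign. Leaving out Ti replicate 1 or Ti replicate 2 ended the Ti call of all 3 (adjusted p 0.0854 to 0.146), and leaving out Ti+I-OG replicate 2 the Ti+I-OG call of all 3 (adjusted p 0.0797 to 0.173).

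Senp1, a protease that removes SUMO and docks at the pore, had 62.7, 68.4 and 77.2 CPM across naive, 43.5, 40.6 and 48.6 across Ti and 46.8, 47.2 and 54.9 across Ti+I-OG. Naive lay above both groups without overlap, with -0.65 (SE 0.132, adjusted p = 0.0207 by edgeR) and -0.48 (SE 0.132, adjusted p = 0.0465). The call in Ti against naive was lost in 3 of 18 alternatives, without naive replicate 3, Ti replicate 1 or Ti replicate 2 (adjusted p 0.0605 to 0.0903). That in Ti+I-OG against naive was lost in 11, among them leaving out any 1 of the 6 libraries (adjusted p 0.0501 to 0.170) and the length correction, where the value was -0.25 (adjusted p = 0.203). The 6 Ran cycle regulators, which load Ran with GTP or clear it, had medians of -0.06 in Ti against naive and 0.13 in Ti+I-OG against naive; edgeR called none of them, and 0 and 1 had an unadjusted p under 0.05, the 1 on the higher side (background 15.6%).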

How the data were processed

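Per the labels' protocols, oligo(dT)-enriched tibia RNA was prepared with a NEBNext Ultra kit, which keeps no strand. RSEM, StringTie 1.3.1, fastp, edgeR and DESeq2 appear in the submitters' processing notes with no order; aligner, genome build and annotation: not given in the sources used here. The authors deposited estimated counts, which were rounded here to whole numbers, and FPKM values, used here for levels between genes and in an alternative test. No column was left unmapped.

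Groups and replicate numbers came from the titles. The counts were tested with edgeR 4.0.16 (R 4.3.3): TMM factors, filterByExpr, a quasi-likelihood fit over all 9 libraries with 6 residual degrees of freedom, 3 two-sided contrasts, and Benjamini-Hochberg adjustment over the 14211 genes tested (threshold 0.05). CPM are counts scaled to the TMM-adjusted library size, except that the limit for a count of 0 (3 counts) uses unscaled totals and covers counting error only. Relative levels are log2 CPM with a prior count of 2. Transcript length came from the ratio of counts to FPKM, and the length correction is a lowess curve (span 0.3) of log level on log length per library, used as an offset. The fits were tested on simulated data. The members, the role groups and the other lists were chosen with earlier results of these data known.

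Named members are those called in a comparison, those with the smallest p up to 6, and Kpnb1, Kpna2, Xpo1, Ran, Tpr, Nup98, Nup62, Nup107 and Nup210; other members and the companion genes called are given more briefly. Values in every library are given for the 12 members with the smallest p over the 3 groups and for those 9; Nup37, Nup43, Xpo7 and the companions were added to these after their values were seen. No library was a copy of another: within groups, chi-square over its degrees of freedom was 12.9 to 132.

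Same-numbered libraries of naive and Ti+I-OG deviated together (correlations 0.20, 0.11 and 0.27 over genes), so by the rule that every pair exceeds 0.1 the replicate numbers were taken to pair these 2 groups; the labels do not say what a number marks. Alternatives were other scaling factors, no count filter, DESeq2 1.42.0, limma 3.58.1 (voom, and log2(FPKM + 0.1) or log2(FPKM + 1)), a replicate block, the length correction, both together, only the groups compared, and leaving out each library. Gene overlaps and shared 50-base words were found in GENCODE mouse release M21, where all 51 members occur.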

Additional observations from a re-analysis of the deposited data

How the results depend on the processing

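In Ti against naive, 0 were called in the reported fit, 5 by DESeq2, 1 with log2(FPKM + 0.1), 1 with log2(FPKM + 1) (1.65% of all genes lower), 15 with the replicate block (10.3%) and 10 with the block and the length correction (9.41%), all lower. Leaving out 1 library gave 0 to 6: 3 without naive replicate 2 (9.93% of all genes called), 6 without Ti replicate 3 (13.9%), and 0 without each of the others. In Ti+I-OG against naive the reported 2 became 0 with upper quartile factors, 1 without the count filter, 9 by DESeq2 and 1 by limma-voom. It became 12 with log2(FPKM + 0.1) and 9, all lower, with log2(FPKM + 1). The latter called 10.5% of all genes lower and 2.04% higher. The number was 18 with the replicate block, 0 with the length correction and 1 with the block and the length correction. It was 0 when only these 2 groups were fitted. Leaving out 1 library gave 0 to 7, with 7 without naive replicate 2 (14.7% of all genes called) and 0 without each of the others. In Ti+I-OG against Ti every setting gave 0 members. Apart from the alternatives with fewer samples, the cause of these moves was not tested.

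In Ti against naive the replicate numbers share only a number (correlations -0.02, 0.33 and 0.24), where the block called 10.3% of all genes lower; in Ti+I-OG against Ti they were 0.07, 0.20 and 0.22, every library correlated best with its own number, and the block called 9 genes against 6. Over all genes, 914 were called in Ti against naive and 1174 in Ti+I-OG against naive. DESeq2 called 1859 and 2440, the block 2968 and 3450, and the block with the length correction 2726 and 2102. The length correction alone called 834 and 353, fits of the 2 groups 357 and 770, log2(FPKM + 0.1) 544 and 1853, and log2(FPKM + 1) 556 and 1787. Leaving out 1 library gave 100 to 1999 and 59 to 2119.

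The median of the members stayed negative in both comparisons with naive under every setting, from -0.34 to -0.19 in Ti and from -0.35 to -0.09 in Ti+I-OG. In Ti+I-OG against Ti it ran from -0.06 to 0.10 and was negative on both FPKM scales, without Ti replicate 2 (-0.02) and without Ti+I-OG replicate 3 (-0.0066). Upper quartile factors moved the median of all genes in Ti+I-OG against naive to 0.12, and log2(FPKM + 0.1) moved it to -0.16.

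Alternatives were tabulated gene by gene only for the named members and the companion genes called; among these, the signs that turned, none of them past the threshold before or after, were these. In Ti against naive, Xpo1 had -0.0576 with log2(FPKM + 0.1), -0.0564 with log2(FPKM + 1) and, without single libraries, -0.0503 (Ti replicate 1) to 0.1364; Tpr had 0.23 and 0.22 on the FPKM scales. In Ti+I-OG against Ti, Kpnb1 had -0.0807 and -0.079 on the FPKM scales, and -0.0506 (without Ti replicate 2) to 0.0898 over single libraries left out, negative also without Ti+I-OG replicate 3 (-0.035). Nup210 had -0.10 (without Ti replicate 2) to 0.4061, negative also without Ti+I-OG replicate 3 (-0.05). Nup98 had 0.0388 with the length correction and 0.0346 with the block added. In Ti+I-OG against naive, Ran had -0.0379 and -0.0377 and Tpr 0.0239 and 0.0229 on the FPKM scales, and Xpo1 had 0.038 with the length correction and 0.0349 with the block added. The cause of these turns was not tested.

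With 3 libraries a group and a threshold over 14211 genes, differences of the size seen here, such as a log2 fold change of -0.28, can fail the test in single genes. Nup210l, with 3 to 31 counts a library, is the least precise of the tested members.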
